A study of Oryza sativa Japonica Group with 20 samples.

Results

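The regions described here are places in the rice genome where EMF2b was found in wild-type root tips without H3K27me3, without H3K4me3 and without the transcription factor PLT5. Peaks of the 2 wild-type (WT) EMF2b libraries were merged into 17368 regions, and 12612 of these were touched by both libraries and are called EMF2b sites. A site was kept as unmarked when no peak of any WT PLT5, H3K27me3 or H3K4me3 library overlapped it by 1 bp or more. This left 1548 unmarked sites, 12.3% of the 12612, with 1009 kb of sequence in all; without WT EMF2b replicate 2 as a requirement the number was 2513. Sites were thus chosen by the presence and absence of WT peaks of these 4 antibodies, so the presence of EMF2b and the absence of the other 3 in WT describe the selection and are no result.

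EMF2b is a subunit of Polycomb repressive complex 2 (PRC2), the enzyme complex that places H3K27me3 on nucleosomes of repressed developmental genes. H3K4me3 marks the starts of active genes, and genes that carry both marks are called bivalent. PLT proteins are AP2-type transcription factors, known from Arabidopsis for maintaining the stem cells of the root meristem, and PRC2 in plants is brought to its targets in part by transcription factors.

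The study set plt345, a rice line in which PLT3, PLT4 and PLT5 are all mutated, beside WT plants of cultivar ZH11. Nuclei came from root tips of about 0.8 cm of 7-day seedlings and went through CUT&Tag, in which an antibody brings a transposase to the chromatin it binds, so that DNA is cut and tagged there. The question named by the study's title is how PLT factors and PRC2 act together at bivalent genes of the root meristem. Peak lists were used for 14 of 20 samples: 2 libraries per genotype for EMF2b, H3K27me3 and H3K4me3, and 2 WT libraries for PLT5. The other 6 samples, IgG in both genotypes and PLT5 in plt345, were not analysed here. Neither EMF2b nor PLT5 peaks were thus set against a control antibody here, and whether the authors' peak calling used a control is not known. A root tip holds many cell types, and fewer cells with EMF2b at a site and less EMF2b per cell cannot be told apart in such bulk samples.

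EMF2b gave 15342 and 17891 peaks in plt345 and 15486 and 14851 peaks in WT, so the genotypes overlapped in the number of EMF2b calls. They did not overlap in the length covered, at 7.52 and 9.255 Mb in plt345 and 10.1 and 9.287 Mb in WT. The shortest EMF2b peaks of plt345 were 247 and 249 bp long, against 290 and 285 bp in WT. The part of these differences in the results was not tested. H3K27me3 had 20841 and 20942 peaks in plt345 and 23957 and 24185 peaks in WT, and H3K4me3 27182 and 26841 peaks in plt345 and 25762 and 25165 peaks in WT. The lists carry no read counts, so depth is unknown, and a site without a peak may hold signal under the caller's threshold. Intervals printed with shares are 95% Wilson intervals over sites, which cover counting error only; sites are not replicates, and nothing says that the 2 libraries of a group came from separate plants. With 2 libraries a genotype an exact permutation test cannot go below p = 0.333 (two-sided).

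Unmarked sites were narrow and weak EMF2b sites. Their median width was 591.5 bp (25th to 75th percentile 476 to 777 bp), against 718 bp for the 11064 other EMF2b sites. The −log10 q of the peak caller, which grows with the strength of evidence for a peak, had a median of 9.56 over the mean of both WT libraries, against 13.2 at the other sites. In the median the fold enrichment over the modelled background was 4.06 and 4.23 in WT replicates 1 and 2 at unmarked sites, and 4.69 and 4.87 at the other sites. About the same share lay in the weaker part of each list: 66.7% and 67.1% of unmarked sites were below the median −log10 q of all peaks of WT replicates 1 and 2. The top decile of the peaks held 38 unmarked sites in replicate 1 (2.45% of them) and 36 in replicate 2 (2.33%).

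The 3 kinds of EMF2b site that differ from the unmarked ones by a single feature were close to them in some measures. Sites with PLT5 but no mark (1255) were the widest, with a median of 766 bp and a −log10 q of 11.8. Sites with H3K27me3 only (1074) had a median width of 612 bp and a −log10 q of 9.71, near the unmarked sites. Sites with H3K4me3 only (777) were narrower than unmarked ones, at 543 bp, but had a higher −log10 q of 10.3. These values took part in the choice of sites and carry no test.

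**Figure D1:**
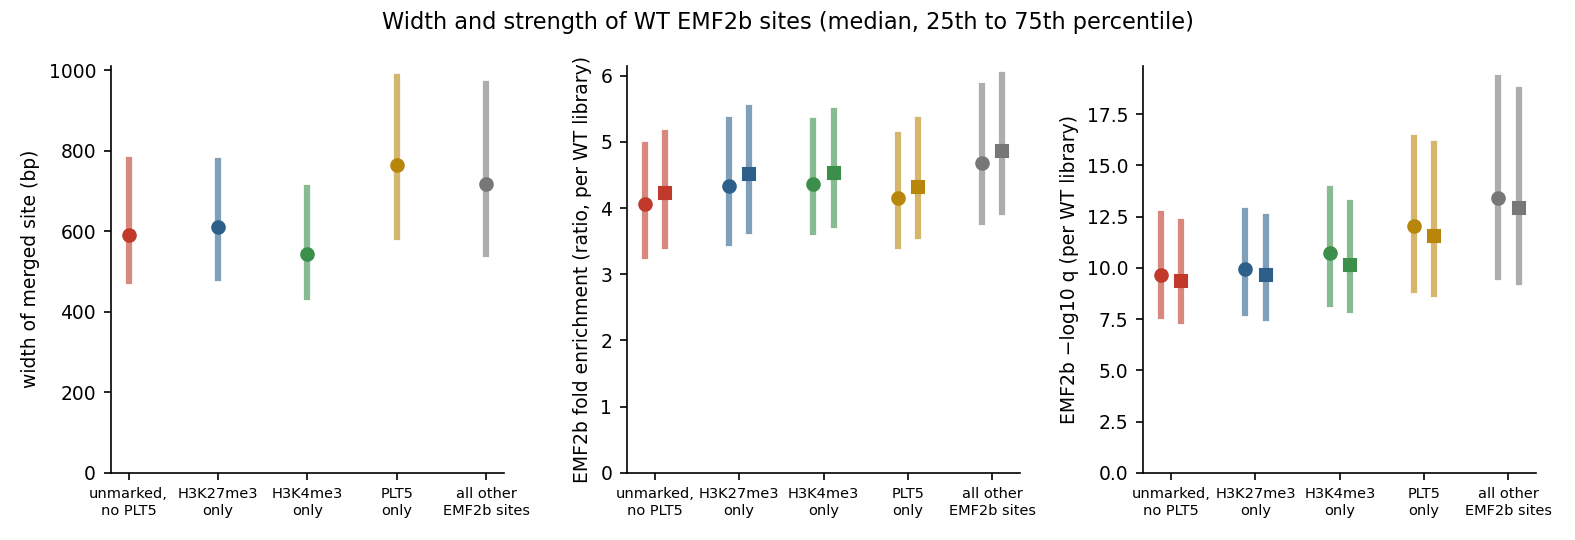
Width of merged EMF2b sites in bp (left), fold enrichment as a ratio (middle) and −log10 q (right) of their WT peaks, by class of site; points are medians and bars span the 25th to 75th percentiles, with circles for WT replicate 1 and squares for WT replicate 2. Unmarked sites have a median width of 591.5 bp against 718 bp for all other EMF2b sites, and the lowest median −log10 q of the 5 classes drawn.

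A few unmarked sites were nevertheless strong, and 8 are described by their mean −log10 q in WT. The strongest lay on chromosome 1 from 20503150 to 20504017, with −log10 q values of 13.4 and 23.3 in plt345 replicates 1 and 2, against 59.4 and 55.5 in WT replicates 1 and 2. Its fold enrichment was 7.03 and 8.60 in plt345 and 11.4 and 11.8 in WT. It sat 1139 bp from the nearest WT H3K4me3 peak and 37324 bp from the nearest WT H3K27me3 peak. The second, on chromosome 6 from 11931794 to 11932440, had −log10 q values of 9.01 and 11.3 in plt345 and 57.1 and 49.3 in WT. This site was remote from every other feature, at 38885 bp from H3K27me3, 53380 bp from H3K4me3 and 204349 bp from PLT5. The third, on chromosome 4 from 7305619 to 7306277, had no peak in plt345 replicate 1 and a −log10 q of 6.01 in replicate 2, against 38.1 and 54.7 in WT. These sites were ranked on WT strength, and the values of the genotypes come from separate lists, so no difference in strength is read from them.

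Of the other 5 strongest sites, those on chromosome 11 from 12164475 to 12164863, chromosome 9 from 3485290 to 3486096 and chromosome 11 from 18954332 to 18954900 had EMF2b in both plt345 libraries. The last of them had −log10 q values of 27.2 and 30.4 in plt345 against 37.3 and 31.7 in WT, and folds of 7.05 and 6.91 against 7.11 and 6.65. The site on chromosome 12 from 10985436 to 10986388 had a peak in plt345 replicate 2 only (−log10 q 7.43), against 33.5 and 33.1 in WT, and lay 47 bp from an H3K4me3 peak. The site on chromosome 5 from 8007929 to 8008870 had no EMF2b peak in either plt345 library, against −log10 q values of 29.9 and 40.9 and folds of 9.11 and 10.9 in WT.

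That site on chromosome 5 was the strongest of the unmarked sites with no EMF2b in plt345. A WT H3K27me3 peak began 1334 bp from it, and H3K27me3 was also called beside it in both plt345 libraries. EMF2b peaks on the far side from that domain were called in all 4 EMF2b libraries. The next strongest absent site, on chromosome 1 from 11017725 to 11018608, had WT −log10 q values of 36.0 and 30.1. Chromosome 2 held the following pair: the site from 14534161 to 14534751 had WT values of 30.5 and 31.7, and the site from 3022917 to 3023857 had 30.0 and 31.6. The fifth was on chromosome 8 from 15286370 to 15286922, where the WT values were 25.8 and 33.6. None of these 5 sites was overlapped by a plt345 peak of EMF2b, H3K27me3 or H3K4me3.

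**Figure D2:**
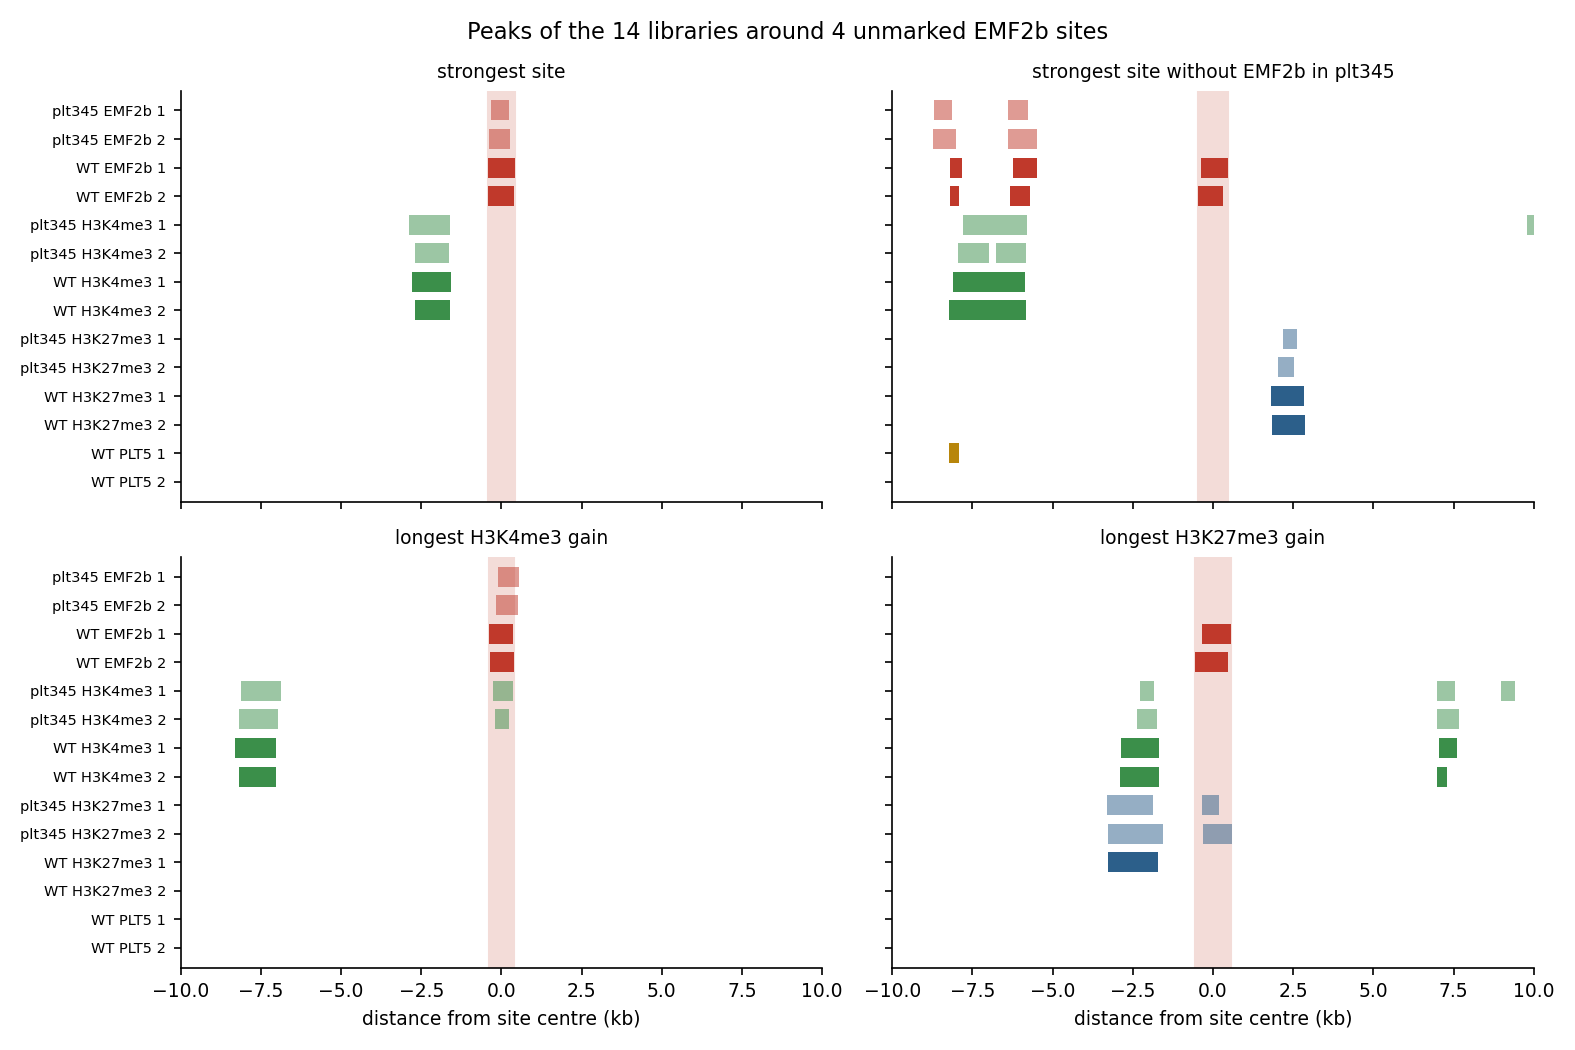
Peaks of the 14 libraries, drawn as bars by distance in kb from the site centre, around the strongest unmarked site, the strongest one without EMF2b in plt345, and the ones with the longest H3K4me3 and H3K27me3 cover gained in plt345; the shaded band is the merged WT EMF2b site. At the strongest absent site EMF2b bars stand in the band for WT only, while EMF2b bars to its left are drawn for both genotypes.

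Unmarked sites lay nearer to H3K27me3 domains than other EMF2b sites that also lack the mark. The median distance to the nearest WT H3K27me3 peak was 6278.5 bp (25th to 75th percentile 1876 to 16660.5 bp), against 8892 bp for sites with PLT5 only and 9697 bp for sites with H3K4me3 only. Within 1 kb of a WT H3K27me3 peak lay 202 unmarked sites (13.0%, interval 11.5 to 14.8%), against 8.21% of PLT5-only and 6.69% of H3K4me3-only sites. Within 5 kb lay 686 (44.3%, 41.9 to 46.8%), against 32.8% and 32.2% of those 2 classes. The order was the same with either WT H3K27me3 library alone: 7413.5 and 7371.5 bp for unmarked sites, 10695 and 10701 bp for PLT5-only sites, and 10888 and 11788 bp for H3K4me3-only sites. Unmarked sites thus lay apart from both other classes by more than the libraries differed.

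Most unmarked sites were nevertheless not enclosed by the mark. H3K27me3 peaks lay within 5 kb on both sides of 160 sites (10.3%) and on 1 side of 526 (34.0%), and 862 (55.7%) had none. Within 50 kb lay 95.1% of unmarked sites. The farthest lay on chromosome 6 from 14914459 to 14914945, at 266245 bp, with EMF2b −log10 q values of 7.40 and 8.94 in plt345 and 7.16 and 5.16 in WT. Its nearest H3K4me3 peak was 706 bp away. The next, on chromosome 6 from 18471080 to 18471446, was 254585 bp from H3K27me3 and 305510 bp from H3K4me3 and had no EMF2b peak in plt345, against −log10 q values of 11.8 and 8.08 in WT.

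H3K4me3 was usually close. The median distance to the nearest WT H3K4me3 peak was 2185.5 bp for unmarked sites, against 1851 bp for PLT5-only sites and 4041.5 bp for H3K27me3-only sites. Within 5 kb lay 76.3% of unmarked sites, 84.0% of PLT5-only sites and 55.4% of H3K27me3-only sites. An H3K4me3 peak within 5 kb on both sides was found for 407 unmarked sites (26.3%) and on 1 side for 774 (50%). The nearest PLT5 peak was at a median of 5731 bp, and 45.0% of unmarked sites had one within 5 kb. Unmarked sites thus stood between the other 2 classes in their distance to H3K4me3. They were not assigned to genes, because no annotation on the lists' genome build was used.

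**Figure D3:**
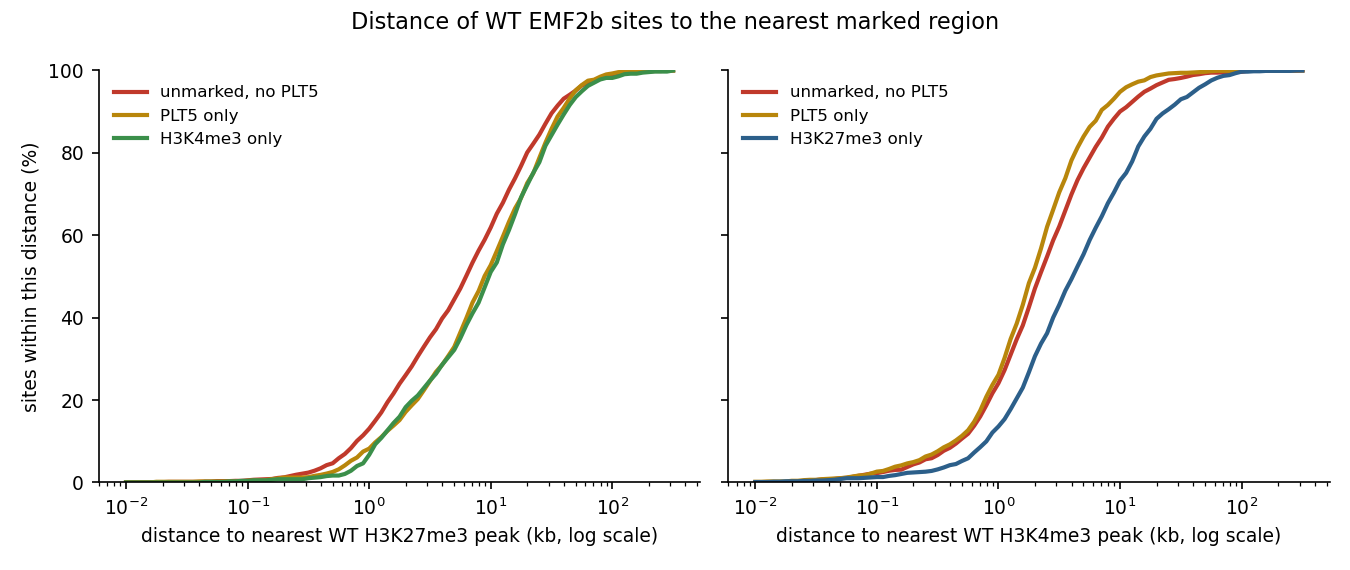
Cumulative percent of EMF2b sites within a given distance (kb, log scale) of the nearest WT H3K27me3 peak (left) and H3K4me3 peak (right), for classes that do not carry that mark. On the left the curve of unmarked sites stands above both others at 1, 5 and 20 kb, with 44.3% within 5 kb; on the right it runs between PLT5-only and H3K27me3-only sites.

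Peaks of either WT library of an antibody were merged and counted within 50 kb on each side. Unmarked sites had on average 9.27 H3K4me3 peaks, 6.40 H3K27me3 peaks, 5.06 PLT5 peaks and 5.99 other EMF2b regions. All other EMF2b sites had 9.56 H3K4me3 peaks, 8.30 H3K27me3 peaks, 6.05 PLT5 peaks and 6.11 other EMF2b regions in the same window. Many of those sites carry the peaks counted, while the choice of sites had kept H3K27me3, H3K4me3 and PLT5 peaks off the unmarked ones. Among the classes without H3K27me3, the mean number of H3K27me3 peaks was highest at unmarked sites, against 5.78 at PLT5-only sites, 5.68 at H3K4me3-only sites and 5.08 at sites with PLT5 and H3K4me3. Among the classes without PLT5, the mean number of PLT5 peaks was also highest at unmarked sites, against 4.87 with H3K4me3 only, 4.67 with both marks and 4.39 with H3K27me3 only. Unmarked sites were spread over all 12 chromosomes, from 10.0% of the EMF2b sites of chromosome 4 to 15.7% of those of chromosome 10, and 1 lay on an unplaced sequence. Another unmarked site lay within 5 kb of 98 unmarked sites (6.33%), as 49 pairs and no larger group. No such share was measured for other EMF2b sites, so it is not known whether this is few or many. The first 3 pairs were on chromosome 1, from 3485484 to 3487649, from 4225988 to 4228336 and from 40701098 to 40702709, and in the second of these both sites had no EMF2b in plt345.

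EMF2b was called less often at unmarked sites in plt345 than at other sites. Neither plt345 library had a peak at 782 of 1548 sites (50.5%, interval 48.0 to 53.0%), 1 library had one at 280 (18.1%) and both at 486 (31.4%, 29.1 to 33.8%). Over all 12612 EMF2b sites the share absent from both plt345 libraries was 19% and the share present in both was 68.6%. Among the 11064 other sites 1617 (14.6%) were absent, so the shares differed by 35.9 percentage points (counting interval 33.3 to 38.5). By single library, EMF2b was called at 573 unmarked sites in plt345 replicate 1 (37.0%) and 679 in replicate 2 (43.9%). A site that must have a peak in both WT libraries can only stay or be absent elsewhere, so these shares describe the sites and are no test of the mutation.

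A wider window changed this little. When a plt345 peak within 500 bp counted as present, 739 unmarked sites (47.7%) still had none, against 18% of all EMF2b sites. The share absent was higher at unmarked sites than in each other class. It was 42.7% at sites with H3K27me3 only, 29.6% with H3K4me3 only, 24.3% with both marks and no PLT5, and 20.8% with PLT5 only. Among sites with PLT5 and marks it was 16.4% with H3K27me3, 7.36% with H3K4me3 and 4.17% with both.

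Since unmarked sites were weaker, the share was also read within classes of WT strength. At a mean −log10 q under 8, 57.1% of 448 unmarked sites were absent from plt345, against 30.3% of other sites. From 8 to 12 the shares were 49.7% of 698 and 22.1%, and from 12 to 20 they were 45.0% of 327 and 10.1%. At 20 or more, 32 of 75 unmarked sites (42.7%, interval 32.1 to 53.9%) were absent, against 2.54% of other sites. The gap to all other sites together was thus widest among the strongest sites. The share at unmarked sites fell with each class of strength, to 42.7% against 50.5% over all strengths. The make-up of the other sites also changed with strength. Sites with PLT5 and both marks were 1262 of the 2399 other sites at 20 or more, against 231 of the 1335 under 8. In the same strongest class, 4.43% of PLT5-only sites, 8.82% of H3K4me3-only sites and 30.6% of the 36 H3K27me3-only sites were absent. The interval of the H3K27me3-only share, 18.0 to 46.9%, overlapped that of the unmarked share. By width, 59.3% of unmarked sites under 500 bp were absent, against 21.7% of other sites, and 30.8% of those of 1000 bp or more, against 6.67% of other sites. Unlike with strength, the gap was narrower among the widest sites than among the narrowest.

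**Figure D4:**
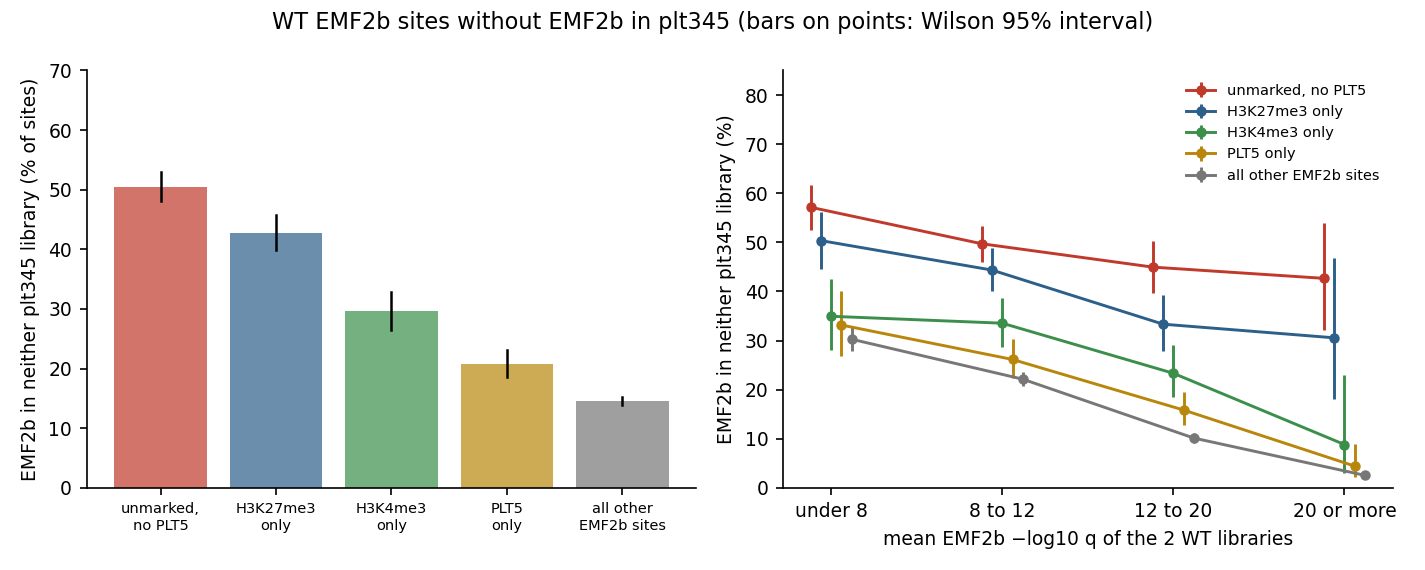
Percent of WT EMF2b sites with no EMF2b peak in either plt345 library, by class (left) and by class and mean WT −log10 q (right); black and coloured bars are 95% Wilson intervals. Unmarked sites stand highest at 50.5% over all strengths and at 42.7% among sites with a −log10 q of 20 or more, where all other EMF2b sites together are at 2.54%.

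Absence in plt345 went with nearness to H3K27me3. Of unmarked sites within 1 kb of a WT H3K27me3 peak 57.4% had no EMF2b in plt345, of those at 1 to 5 kb 53.7%, at 5 to 20 kb 49.0% and beyond 20 kb 43.6% (interval 38.2 to 49.2%). PLT5-only sites showed the same order at a lower level, with 27.2%, 25.6%, 19.0% and 17.3%. The median distance to H3K27me3 was 5593 bp for absent and 7327.5 bp for kept unmarked sites. Distance to H3K4me3 ran the other way, with 48.5% absent within 1 kb and 55.8% at 5 to 20 kb, and distance to PLT5 showed little, at 50% within 1 kb and 55.2% beyond 20 kb. Neighbouring intervals overlap in each of these series. By chromosome the share ran from 43.5% on chromosome 8 to 56% on chromosome 11, each far above the 13.2 to 16.5% at other sites.

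A comparison less bound to the choice of sites leaves 1 WT EMF2b library out of it and then reads that library and both plt345 libraries. Of 2290 unmarked sites chosen without WT replicate 1, EMF2b was called at 32.4% in plt345 replicate 1 and 39.2% in plt345 replicate 2, against 74.1% in WT replicate 1. Of 2513 chosen without WT replicate 2, it was called at 30.5% and 37.7% in the plt345 libraries, against 65.0% in WT replicate 2. Both plt345 values lay under the left-out WT value in both choices, by 27.3 to 41.7 percentage points, while the plt345 libraries differed from each other by 6.72 to 7.16 points. At all other EMF2b sites the plt345 values were 73.2% and 79.1% against 88.7% in WT, and 71.5% and 77.4% against 85.6%, a gap of 8.19 to 15.5 points. The gap was thus wider at unmarked sites than at all others together. It was not particular to them: at sites with H3K27me3 only the plt345 values were 39.1% and 48.7% against 75.9% in WT, and 36.6% and 45.0% against 66.5%, so that their gaps overlapped those of unmarked sites. With 1 WT library and 2 plt345 libraries outside the choice, no exact permutation test can pass 0.05.

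**Figure D5:**
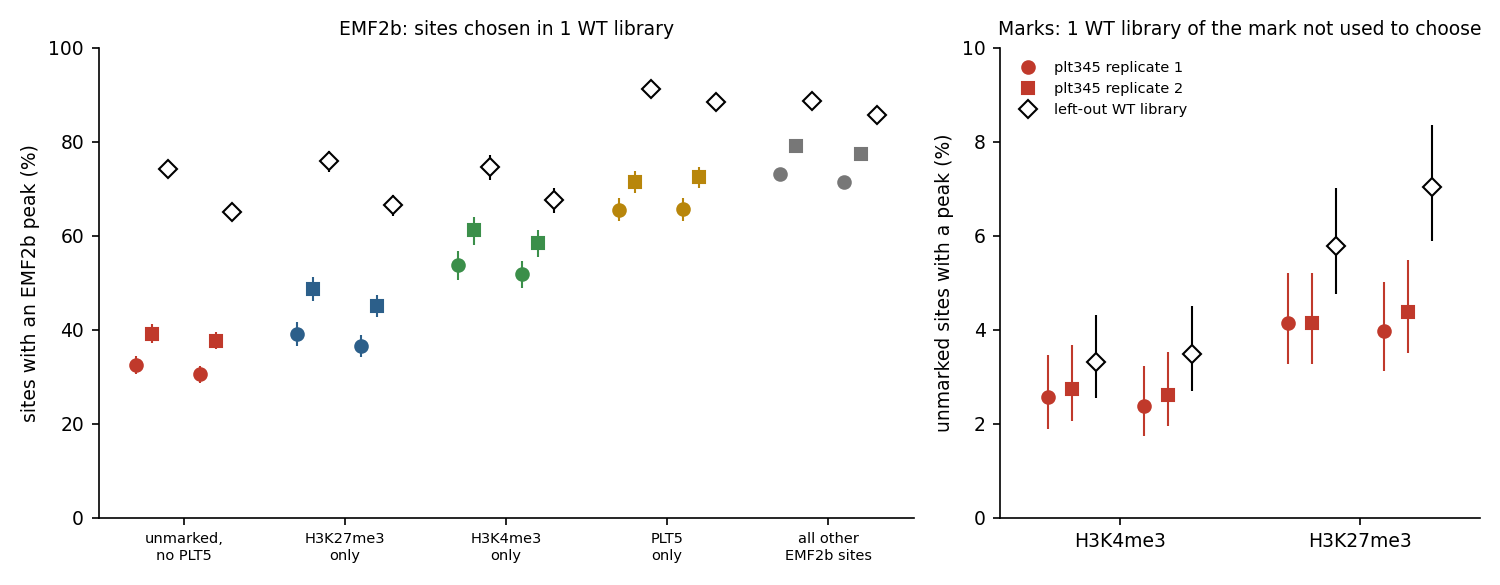
Percent of sites with a peak in plt345 replicate 1 (circles), plt345 replicate 2 (squares) and the WT library that was left out of the choice (diamonds), with 95% Wilson intervals; the left panel shows EMF2b by class, once without WT replicate 1 and once without WT replicate 2, and the right panel the same for each histone mark at unmarked sites. For EMF2b at unmarked sites the plt345 points lie at 30.5 to 39.2% under diamonds at 74.1% and 65.0%, and for both marks the plt345 points lie under the diamonds.

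The same selection made from plt345 gave a similar picture. EMF2b of both plt345 libraries was found at 13281 sites, of which 1794 had no plt345 H3K27me3 or H3K4me3 peak and no WT PLT5 peak, with a median width of 477 bp. Of these, 854 (47.6%, interval 45.3 to 49.9%) had EMF2b in neither WT library, against 22% of all 13281 sites and 18.0% of the other sites, and 621 (34.6%) had it in both. With plt345 replicate 1 left out of the choice, EMF2b was called at 55.0% in that library and at 37.5% and 34.2% in WT replicates 1 and 2, and with plt345 replicate 2 left out at 73.7% and at 39.5% and 36.6%. Only 424 (23.6%) of the 1794 touched an unmarked WT site. In each genotype, then, most unmarked EMF2b sites were not in both libraries of the other genotype.

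At the 486 sites with EMF2b in all 4 libraries the median fold was 4.46 and 4.37 in plt345 replicates 1 and 2, and 4.16 and 4.28 in WT. Kept peaks had median widths of 406.5 and 458.5 bp in plt345 replicates 1 and 2, against 537 and 519 bp in WT, beside the shorter minimum peak length in plt345. Kept sites had been stronger and wider in WT than absent ones, with a median −log10 q of 10.2 against 9.18 and a merged width of 624.5 against 556.5 bp. The median distance between summits was 56 bp for the plt345 pair, 68.5 bp for the WT pair and 75.5 to 107 bp for pairs across the genotypes. Across genotypes the summits were thus somewhat farther apart than within either, as they were at the other kept sites, at 50 bp for plt345, 56 bp for WT and 71 to 75 bp across.

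Few unmarked sites carried a histone mark in plt345, and a peak in both plt345 libraries with none in WT is called a gain here. An H3K4me3 peak lay on 29 sites (1.87%) in plt345 replicate 1 and 31 (2.00%) in replicate 2, and on 18 (1.16%, interval 0.737 to 1.83%) in both, while no WT library had one by the rule. Among all 5419 EMF2b sites without WT H3K4me3 the share with the mark in both plt345 libraries was 1.96%. By class it was 1.21% with H3K27me3 only, 2.15% with PLT5 only and 3.11% with PLT5 and H3K27me3. H3K27me3 lay on 49 sites (3.17%) in plt345 replicate 1, on 47 (3.04%) in replicate 2 and on 16 (1.03%, 0.637 to 1.67%) in both, against 1.44% of the 6174 EMF2b sites without WT H3K27me3. Without WT H3K27me3 replicate 1 in the choice this share was 1.64%, and without replicate 2 1.56%. No unmarked site had both marks in both plt345 libraries (0 of 1548, interval up to 0.248%). Peaks in at least 1 plt345 library were more frequent. H3K4me3 lay on 42 unmarked sites (2.71%), against 5.59% of EMF2b sites without WT H3K4me3, and H3K27me3 on 80 (5.17%), against 6.8% of those without WT H3K27me3. Neither plt345 library had H3K4me3 at 97.3% of unmarked and 96.3% of H3K27me3-only sites. For H3K27me3 in both plt345 libraries the share over all such EMF2b sites lay inside the interval of the unmarked ones, so these shares were not told apart. For H3K4me3 in both, the share at H3K27me3-only sites lay inside that interval too, so a low share was not particular to unmarked sites. By EMF2b state in plt345, H3K27me3 was found in at least 1 plt345 library at 7.82% of sites with EMF2b in both, 5% with EMF2b in 1 and 3.58% with EMF2b in neither, and H3K4me3 at 4.94%, 1.07% and 1.92%. Gains in both plt345 libraries, in the same order, were at 1.44%, 1.07% and 0.767% for H3K27me3 and 1.65%, 0.357% and 1.15% for H3K4me3. The intervals of these gains overlapped. For peaks in at least 1 plt345 library, those of sites with EMF2b in both and in neither did not. They were 5.75 to 10.6% and 2.49 to 5.13% for H3K27me3, and 3.34 to 7.24% and 1.17 to 3.14% for H3K4me3. Sites with EMF2b in both were also wider, and the part of width in this was not tested. The most frequent state in plt345 was no peak at all, with neither EMF2b nor a mark in any library at 741 sites (47.9%), and the next was EMF2b in both libraries without a mark, at 428 (27.6%).

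The longest H3K4me3 gain was on chromosome 9 from 497941 to 498730. H3K4me3 covered 609 and 428 bp of it in plt345 replicates 1 and 2 and none in WT. EMF2b was called there in all 4 libraries, with −log10 q values of 31.2 and 34.0 and folds of 10.6 and 10.9 in the plt345 lists, and of 15.2 and 18.7 and 6.75 and 8.02 in the WT lists. The next gains, on chromosome 4 from 12695275 to 12695915 (435 and 430 bp) and from 20906415 to 20907184 (376 and 313 bp), differed in EMF2b, which was absent from plt345 at the first and present in both plt345 libraries at the second. On chromosome 11 from 26518365 to 26518868 the cover was 289 and 367 bp and on chromosome 2 from 22091329 to 22091696 284 and 368 bp, both with EMF2b in all 4 libraries. Over the 18 sites with H3K4me3 in both plt345 libraries, EMF2b was in both plt345 libraries at 8 and in neither at 9, against 31.4% in both and 50.5% in neither over all unmarked sites. Of the 18, 5 (27.8%) lay within 1 kb of a WT H3K4me3 peak, close to the 24.1% of all unmarked sites.

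The longest H3K27me3 gain was on chromosome 9 from 4981433 to 4982570, with 529 and 878 bp covered in plt345 and none in WT. EMF2b, the PRC2 subunit, had no plt345 peak there, against −log10 q values of 12.4 and 10.0 in WT. The next were on chromosome 3 from 25231703 to 25232967 (668 and 683 bp), with EMF2b in plt345 replicate 1 only, and on chromosome 1 from 27828204 to 27828855 (581 and 606 bp) and from 33840285 to 33841530 (636 and 484 bp), both with EMF2b in both plt345 libraries. On chromosome 11 from 8528306 to 8528790 the mark covered the whole 485 bp of the site in both plt345 libraries, with no EMF2b peak there in plt345. Of the 16 sites, 7 (43.8%) lay within 1 kb of a WT H3K27me3 peak, against 13.0% of all unmarked sites. EMF2b was in both plt345 libraries at 7 of the 16 and in neither at 6, against 31.4% and 50.5% of all unmarked sites.

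In single libraries, neither mark was more frequent in plt345 than in a WT library left out of the choice. When sites were chosen without WT H3K4me3 replicate 1, H3K4me3 lay on 2.56% and 2.75% of 1601 sites in plt345 and on 3.31% in the left-out WT library, and without replicate 2 on 2.37% and 2.62% against 3.49%. For H3K27me3 the shares were 4.14% in each plt345 library against 5.78% in WT replicate 1, and 3.96% and 4.38% against 7.03% in WT replicate 2. The plt345 shares were thus below the left-out WT share in each of the 4 choices. PLT5 disagreed more: 17.5% of the sites chosen without PLT5 replicate 1 had a peak in it, and 10.7% of those chosen without replicate 2, so that freedom from PLT5 rests on peak calls that differ between its 2 libraries.

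From the plt345 side the marks were not symmetric. Sites unmarked in plt345, chosen without 1 plt345 library of the mark, had H3K27me3 on 6.76% in the left-out plt345 library in both choices, against 16.6 to 18.3% in the WT libraries. For H3K4me3 the shares were 4.68% in the left-out plt345 library in both choices and 8.55 to 8.93% in the WT libraries. EMF2b sites without a mark in plt345 thus carried it in WT more often than in the other plt345 library, while sites unmarked in WT did not carry it more often in plt345. The plt345 H3K27me3 lists also held fewer peaks over the whole genome than the WT lists, while the plt345 H3K4me3 lists held more. The part of list size in the difference was not tested for either mark.

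The flanks of unmarked sites were measured from 1 to 5 kb on both sides of each site. The zone is not independent of the choice of sites, because a WT peak running from it onto a site had excluded that site, while a plt345 peak had not. H3K27me3 covered 497 and 508 bp of the flanks per site in plt345 replicates 1 and 2, and 614 and 599 bp in WT replicates 1 and 2. The means were 502 ± 8.07 bp in plt345 and 607 ± 10.8 bp in WT (SD, n = 2 each), a ratio of 0.828, and the genotypes did not overlap (exact two-sided permutation test, p = 0.333, the smallest that 2 against 2 libraries allow). The ratio was 0.803 in the flanks of other EMF2b sites and 0.876 for the total length of the H3K27me3 lists. H3K4me3 covered 963 ± 10.9 bp in plt345 and 1004 ± 5.04 bp in WT (SD, n = 2 each), a ratio of 0.960 (exact permutation p = 0.333), the same as at other sites (0.960) and below that of the whole lists (0.991). The flanks of unmarked sites thus followed those of EMF2b sites in general.

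Sites at the edge of the rule were looked at on both sides of it. Distances from sites to peaks are the number of bases between them plus 1. The nearest inside, on chromosome 6 from 2279698 to 2281014, was at 1 bp from a PLT5 peak and thus abutted it. The next, on chromosome 2 from 27227556 to 27228244 and on chromosome 8 from 598673 to 600441, were at 6 and 7 bp from one. The nearest outside, on chromosome 5 from 28863125 to 28863640, shared 1 bp with an H3K27me3 peak of WT replicate 1, and that on chromosome 6 from 25507555 to 25508652 shared 3 bp with one of replicate 2. The second of these was as strong as the best unmarked sites, with −log10 q values of 9.85 and 12.2 in plt345 and 49.4 and 51.4 in WT, and had 575 and 882 bp of H3K4me3 in plt345. EMF2b was absent from plt345 at 32 of 73 unmarked sites with an excluding peak within 150 bp (43.8%), at 92 of 177 with none within 5 kb (52.0%) and at 13 of 26 excluded sites with an overlap under 50 bp (50%). The share absent thus lay between 43.8% and 52.0% on both sides of the limit and far inside it.

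The widest unmarked sites were of moderate strength. The widest, on chromosome 5 from 4169714 to 4171579, was 1866 bp long with −log10 q values of 6.78 and 10.0 in plt345 and 7.97 and 9.71 in WT. The second, on chromosome 2 from 30617616 to 30619452, was 1837 bp long with 7.37 and 11.3 in plt345 and 16.4 and 17.3 in WT. The third, on chromosome 3 from 8136523 to 8138334, lay 11 bp from an H3K27me3 peak and 28 bp from an H3K4me3 peak, and had EMF2b in plt345 replicate 2 only. Over all 146 unmarked sites of 1000 bp or more, 52.1% had EMF2b in both plt345 libraries, against 31.4% of unmarked sites of any width and 85.2% of other EMF2b sites of 1000 bp or more.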

How the data were processed

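CUT&Tag peak lists of 14 libraries were used. The submitters' processing notes list MACS2 2.2.7.1, Bowtie2 2.4.4, Trim Galore 0.6.6 and deepTools 3.5.0; no source used here gives the control, the genome build or caller settings other than a cutoff. The authors deposited 1 list per library, with broad peaks for H3K27me3 and narrow peaks for the rest, so peaks were not called on pooled libraries. Fold enrichment (a ratio to the modelled background), −log10 p, −log10 q and score are the authors' deposited values. They describe peaks, and −log10 q, averaged over the 2 WT lists, ranked and binned sites; plt345 and WT values come from separate lists, and no difference in strength was read between them. Peak starts and ends in bp are other deposited columns, printed 1-based. Peak names record a cutoff of 1e-05 for narrow and 0.1 for broad lists. Called lists depend on depth, which is unknown, so weak peaks are the least certain.

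With Python 3.11.15, numpy 2.4.6, pandas 2.3.3 and scipy 1.17.1, peaks were merged and overlaps of at least 1 bp counted; the code recovered all planted overlaps in simulated lists. Library-level flank values were compared by exact permutation. Sites were named by rank (strength, width, distance, cover of a mark in plt345, nearness to the limit of the rule). The sites, classes and alternatives were chosen with earlier results of these data known. Sites were not assigned to genes and no sequence was read, because no genome of the lists' build was used here.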

Additional observations from a re-analysis of the deposited data

How the results depend on the processing

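The share of unmarked sites without EMF2b in plt345 stayed above that of other sites in every setting tried, but its size and the number of sites depended on how peaks were used. When both WT libraries of PLT5 or a mark were needed to exclude a site there were 2624 unmarked sites, with 41.6% absent from plt345, 40.9% present in both plt345 libraries, H3K4me3 on 2.74%, H3K27me3 on 3.01%, a median width of 617.5 bp, 6669 bp to H3K27me3 and a difference from other sites of 28.5 points. Excluding sites with such a peak within 1000 bp left 976 sites, with H3K27me3 on 0.512% and 7384.5 bp to H3K27me3. Equal numbers of peaks per library gave 54.9% absent, 28.7% in both, H3K4me3 on 0.694%, H3K27me3 on 2.14% and 7189 bp. When plt345 peaks within 500 bp counted, 47.7% of unmarked sites had no EMF2b peak in that window. H3K4me3 and H3K27me3 peaks of both plt345 libraries then lay on or within 500 bp of 8.20% and 3.04%. WT peaks still excluded a site only by overlap, so marks beside a site in both genotypes counted, and these shares are not gains. Stricter peaks gave 685.5 bp wide sites at 8416.5 bp, and a 150 bp overlap 6315 bp.

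Leaving out each of the 14 libraries in turn gave 1548 to 2513 sites (2513 without WT EMF2b replicate 2), 46.6 to 63.0% absent, 25.2 to 43.9% in both, H3K4me3 on 1.09 to 2.00%, H3K27me3 on 0.998 to 3.17%, widths of 428 to 603 bp, distances of 6120.5 to 7004 bp and differences of 32.4 to 39.8 points. The highest mark shares came from settings that ask for 1 plt345 library only: H3K4me3 2.00% without plt345 replicate 1 and 1.87% without replicate 2, and H3K27me3 3.04% without plt345 replicate 1 and 3.17% without replicate 2. Libraries with the same number did not deviate together (correlations of deviations −0.0237 for EMF2b, −0.00867 for H3K27me3 and −0.00469 for H3K4me3). No pairing by number was thus seen in the peaks, but whether libraries of the same number share plants or a batch is not known. With the replicate number as a block, which asks for 1 library of each kind, the means were 3033.5 sites, 60.7% absent, 39.3% present, H3K4me3 on 3.18%, H3K27me3 on 4.72%, 448 bp, 7114 bp and 36.9 points. The causes of these shifts were not tested, beyond the fewer libraries that some settings ask for.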
